A study of Mus musculus with 17 samples.

Results

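The angiopoietins, their Tie receptors and a set of angiopoietin-like proteins were examined in the mouse heart after myocardial infarction. The 7 genes, Angpt1, Angpt2, Tek, Tie1, Angptl2, Angptl4 and Angptl7, were found by matching their mouse symbols to the gene identifiers of the count table, and each had 1 of its 31647 features. Hearts came from wild-type male C57BL/6J mice, 8 to 11 weeks old. In 9 mice the left anterior descending coronary artery was ligated permanently and the infarct zone (IZ) was sampled 5 days later, and 8 mice had the same operation without ligation and gave left ventricular tissue (sham). RNA was sequenced from the 3′ ends of transcripts (MACE), which gives about 1 tag per transcript whatever its length, so that levels can be set side by side between genes. Ligation was not followed by reperfusion, each library was 1 heart, and the samples held all cells of the tissue.

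Angpt1 and Angpt2 are secreted ligands of the receptor tyrosine kinase Tie2, encoded by Tek on endothelial cells. Angpt1 is made mainly by mural and other perivascular cells and activates Tie2, which keeps vessels quiet and tight, whereas Angpt2 is made by endothelial cells themselves and often acts as a context-dependent antagonist that loosens vessels. Tie1 binds neither ligand strongly and modulates Tie2 in a complex with it. Angiopoietin-like proteins share the fold of the angiopoietins but do not signal through the Tie receptors. Angptl4 inhibits lipoprotein lipase, Angptl2 is linked to inflammation and matrix, and Angptl7 is known mainly from the eye and from connective tissue.

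Total counts ran from 1237675 to 4738307 per library. A level is given in CPM, counts per 1000000 of a library size adjusted by trimmed means (TMM). A gene was called where its adjusted p was under 0.05 in the quasi-likelihood test of edgeR (Benjamini-Hochberg). IZ replicate 1 stood apart from its group. Its summed cardiomyocyte markers were at 28186 CPM, against at most 6752 CPM in the other IZ libraries and 66777 to 80531 CPM in sham, and 19.5% of its counts were mitochondrial against a median of 5.76% in IZ and 26.7% in sham. Values without it are given wherever they change a call. All 8 cardiomyocyte markers were lower in the IZ, and 5 of 6 fibroblast, 6 of 6 macrophage and 3 of 3 tested neutrophil markers were higher. In whole tissue, fewer cells of a type and less RNA per cell cannot be told apart.

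The starts of the receptor genes Tek and Tie1 are shown as the reference has them, from 250 bases before to 50 bases after the start, from RefSeq on GRCm38.p6. Windows were held for 4 of the 7 members. The Tek window is chr4:94739039-94739338 on the plus strand and the Tie1 window is chr4:118489800-118490099 on the minus strand. The gene coordinates given further below are from GENCODE. The GENCODE start of Tek, 94739289, is the start its window was cut around. The GENCODE start of Tie1, 118490061, lies near the upstream end of its window, so most of that window is inside the gene by those coordinates. Capitals mark GGAAG, the core of the sites of ETS factors, a family with known roles in endothelial genes, searched on both strands.
Tek: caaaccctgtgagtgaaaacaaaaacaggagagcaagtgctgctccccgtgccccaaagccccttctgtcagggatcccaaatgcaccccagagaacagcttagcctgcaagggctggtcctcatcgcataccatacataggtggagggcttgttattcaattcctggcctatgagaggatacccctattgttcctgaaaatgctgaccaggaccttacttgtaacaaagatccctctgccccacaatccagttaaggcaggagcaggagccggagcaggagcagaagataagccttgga
Tie1: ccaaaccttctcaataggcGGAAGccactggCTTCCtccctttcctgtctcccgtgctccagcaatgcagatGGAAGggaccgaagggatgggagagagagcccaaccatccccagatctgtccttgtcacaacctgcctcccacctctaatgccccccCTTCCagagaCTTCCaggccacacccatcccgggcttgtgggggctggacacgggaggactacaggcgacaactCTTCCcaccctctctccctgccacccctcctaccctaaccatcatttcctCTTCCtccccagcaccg
The Tie1 window held 7 copies of GGAAG and the Tek window none, while 71.4% of 32851 windows of this length held at least 1 and 0.2% held at least 7. GATAAG, a core of GATA factor sites, occurred once in the Tek window, 37 bases past the start, and not in the Tie1 window (7.4% of windows held it). These are matches of letters and not sites of binding. Relative to the GENCODE starts the Tek and Tie1 windows cover different positions, so their match counts do not compare like with like.

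Among the ligands, Angpt1 fell and Angpt2 rose. Angpt1 (ENSMUSG00000022309, GRCm38 chromosome 15, 42424723 to 42676977, minus strand) had a lowest, median and highest level of 17.6, 26.5 and 46.4 CPM in the 8 sham libraries. In the 9 IZ libraries these were 4.6, 11.3 and 20.1 CPM. Of the IZ libraries, 8 lay below every sham library, and replicate 6 lay above the lowest sham library only. The mean went from 30.1 ± 10.6 CPM (SD, n = 8) to 12.3 ± 4.44 CPM (SD, n = 9), a log2 fold change of -1.30 ± 0.22 (SE, edgeR adjusted p = 1.59e-05), or 2.46-fold lower. Among all 12301 genes tested, 69.5% were called, 36.3% as higher and 33.1% as lower. With libraries scaled by their total counts alone, the log2 difference of Angpt1 was -0.22 (edgeR adjusted p = 0.356), a scaling under which the median of all genes moved up by 1.08.

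Angpt2 (ENSMUSG00000031465, chromosome 8, 18690263 to 18741562, minus strand) was the member with the lowest mean in both groups. Its lowest, median and highest levels were 0.54, 2.91 and 4.37 CPM in sham, from 1 to 8 counts per library. In the IZ they were 5.05, 7.26 and 12.8 CPM, from 9 to 66 counts. All 9 IZ libraries lay above all 8 sham libraries, as was so for 16.6% of all genes tested. The log2 fold change was 1.76 ± 0.31 (SE, edgeR adjusted p = 2.37e-05), or 3.39-fold higher, from 2.50 ± 1.47 CPM (SD, n = 8) to 8.35 ± 2.50 CPM (SD, n = 9). With 1 to 8 counts, a sham level is known only roughly, since 3 counts correspond to 1.77 CPM on average in a sham library and to 1.05 CPM in an IZ library.

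**Figure D1:**
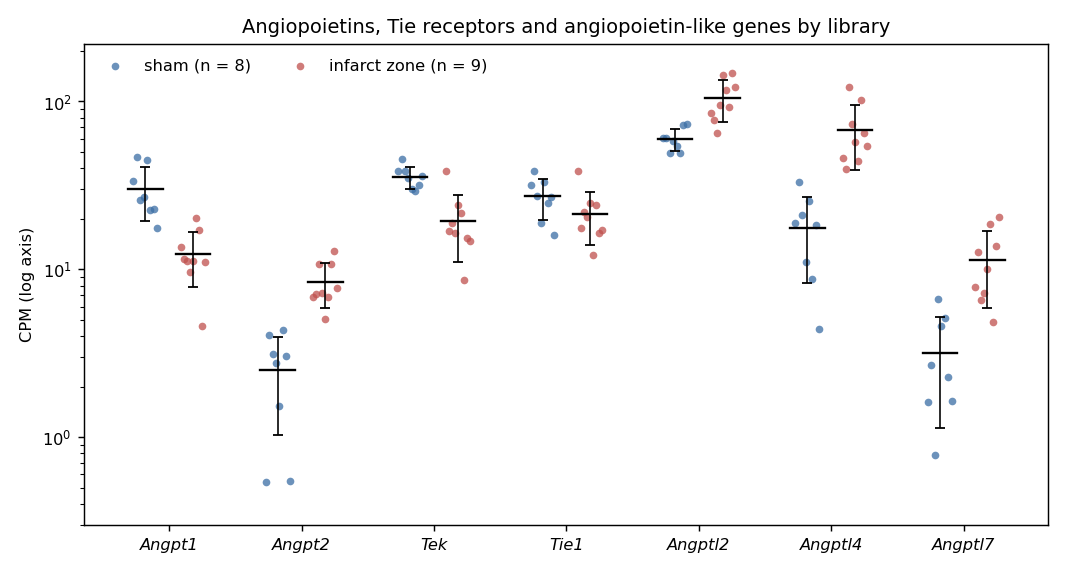
Level of each member in every library, in CPM on a log axis, for 8 sham (blue) and 9 infarct zone (red) libraries. Bars are the mean and SD. Angpt2 and Angptl4 show no overlap between the groups, and Tie1 overlaps almost fully.

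Angpt4, a further ligand of Tie2, was too low to be tested, with 0 to 1 counts in sham and 0 to 7 counts in IZ libraries. The balance of the ligands was read within each library as the log2 ratio of Angpt2 to Angpt1, with a prior count of 1. It was -3.57 ± 1.02 (SD, n = 8) in sham, with single libraries from -5.23 to -2.28. In the IZ it was -0.49 ± 0.83 (SD, n = 9), from -1.51 to 1.40. All 9 IZ libraries exceeded all sham libraries, and the difference of 3.08 ± 0.45 (SE) corresponded to an 8.45-fold shift (exact permutation test over all 24310 assignments of the libraries, two-sided, adjusted p = 1.03e-04 over 10 ratios, from the smallest p this design can give, 4.11e-05). In sham Angpt1 exceeded Angpt2 in every library. In the IZ only replicate 8 had more Angpt2 (12.8 CPM) than Angpt1 (4.6 CPM).

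Of the receptors, Tek fell and Tie1 did not pass the test. Tek (ENSMUSG00000006386, chromosome 4, 94739289 to 94874976, plus strand) had a lowest, median and highest level of 29.1, 35.3 and 45.7 CPM in sham. In the IZ these were 8.59, 16.8 and 38.4 CPM. Every IZ library except replicate 1, which held the 38.4 CPM, lay below every sham library. The mean went from 35.5 ± 5.41 CPM (SD, n = 8) to 19.4 ± 8.36 CPM (SD, n = 9), a log2 fold change of -0.87 ± 0.19 (SE, edgeR adjusted p = 3.64e-04). Without IZ replicate 1 it was -1.08. With total counts alone it turned to 0.17 (edgeR adjusted p = 0.369).

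Tie1 (ENSMUSG00000033191, chromosome 4, 118471191 to 118490061, minus strand) ran from 16 to 38.3 CPM in sham, with a median of 27.3 CPM. In the IZ it ran from 12.2 to 38.4 CPM, with a median of 20.4 CPM. Of the IZ libraries, 1 lay above and 1 below all sham libraries, and the other 7 lay within their range. The log2 difference was -0.35 ± 0.20 (SE, 95% interval -0.74 to 0.04 from the SE, edgeR adjusted p = 0.120). The library above the sham range was again replicate 1, and without it the difference was -0.53 (edgeR adjusted p = 0.00674) and the gene was called as lower. Leaving out sham replicate 8 also brought a call (-0.44, edgeR adjusted p = 0.0485), and total counts alone turned the difference to 0.70 (edgeR adjusted p = 8.15e-04).

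Whether the 2 receptors differed in their change was tested on their ratio within each library. The log2 ratio of Tie1 to Tek was -0.42 ± 0.41 (SD, n = 8) in sham and 0.17 ± 0.58 (SD, n = 9) in the IZ, a difference of 0.59 ± 0.24 (SE, exact permutation test, adjusted p = 0.0318). Only 4 of 9 IZ libraries lay above the sham range. The call was lost without sham replicate 4 (0.53, adjusted p = 0.0704, exact permutation test), sham replicate 8 (0.49, adjusted p = 0.0658, exact permutation test) or IZ replicate 7 (0.43, adjusted p = 0.0509, exact permutation test). With medians in place of means the difference was 0.35 (adjusted p = 0.111, exact permutation test).

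Markers of the endothelium, where both receptors are found, were set beside them. Of 14 endothelial markers, 5 were lower in the IZ (Kdr, Flt1, Egfl7, Cldn5 and Sox17), none was higher, and 9 were not called, among them Pecam1, at 147.3 CPM in sham and 132.2 CPM in the IZ, and Cdh5, at 128.5 and 111.0 CPM. Their summed level was 815 to 1389 CPM in sham and 594 to 889 CPM in the IZ, with 7 of 9 IZ libraries below all sham libraries and none of the 14 at 0 in either group. Upper quartile scaling called 3 of the 14 and total counts alone called 13, 11 of them as higher. Set against the mean log2 level of these markers, Tek was lower in the IZ, with a log2 difference of -0.46 ± 0.20 (SE, exact permutation test, adjusted p = 0.0318), with 7 of 9 IZ libraries below the sham range. This call was lost without sham replicate 2, 4, 7 or 8 or IZ replicate 7, with differences of -0.30 to -0.46 and adjusted p from 0.0509 to 0.0728 (exact permutation tests). Tie1 against the same markers differed by 0.14 ± 0.18 (SE, log2, exact permutation test, adjusted p = 0.474). Angpt2 was higher against them by 2.28 ± 0.39 (SE, log2, exact permutation test, adjusted p = 1.03e-04), in 9 of 9 IZ libraries. The part of endothelial content in the fall of Tek was not tested beyond this ratio.

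**Figure D2:**
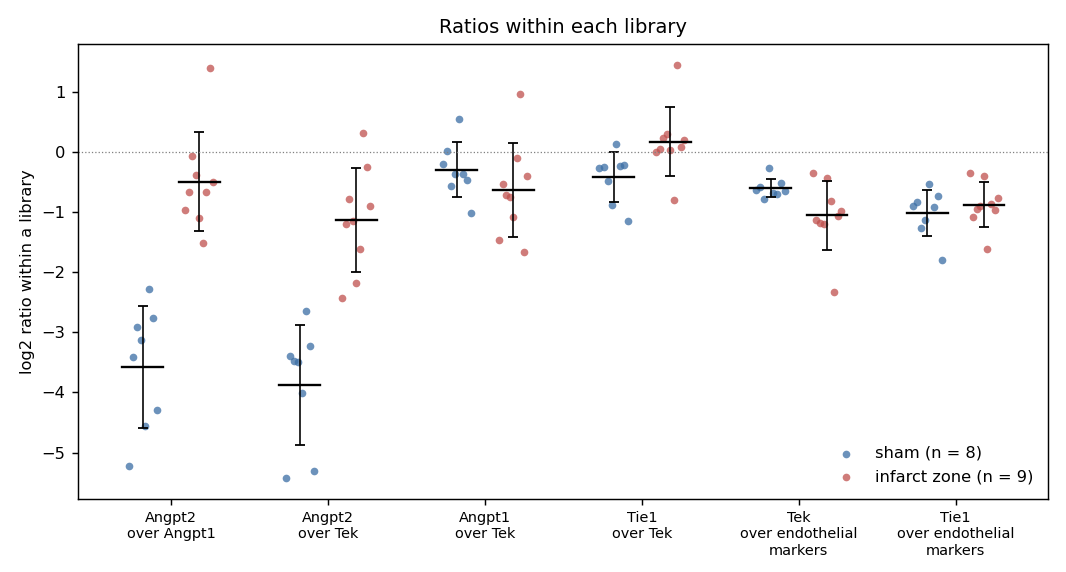
Log2 ratios within each library for 8 sham (blue) and 9 infarct zone (red) libraries, with the mean and SD as bars; endothelial markers stand for the mean log2 level of 14 genes. The Angpt2 to Angpt1 and Angpt2 to Tek ratios separate the groups fully, the Tie1 to Tek ratio does not.

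Of 5 genes chosen as markers of endothelial tip cells, the cells that lead new sprouts and in which Angpt2 is known to be high, 4 were higher (Esm1, Apln, Cxcr4 and Nid2) and Dll4 was lower. Their summed level was 40.0 to 65.1 CPM in sham and 82.2 to 160.1 CPM in the IZ, higher in 9 of 9 IZ libraries. Cxcr4, the most abundant of them in the IZ at 72.1 CPM, is also made by leukocytes. The part of these cells in the rise of Angpt2 was not tested.

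Angpt1 relative to Tek differed by -0.34 ± 0.31 (SE, log2, exact permutation test, adjusted p = 0.334), and Angpt2 relative to Tek by 2.74 ± 0.46 (SE, log2, exact permutation test, adjusted p = 1.65e-04), higher in 9 of 9 IZ libraries. Relative to the mean log2 level of 13 mural cell markers, Angpt1 was lower in the IZ, with a log2 difference of -1.40 ± 0.26 (SE, exact permutation test, adjusted p = 4.11e-04). The mural list itself was mixed, with 5 members higher, 5 lower and 3 not called. Log2 fold changes were 0.96 for Pdgfrb, 1.43 for Mcam, 2.28 for Acta2, 2.79 for Tagln and 2.58 for Cnn1. They were -1.19 for Rgs5, -1.80 for Kcnj8, -2.72 for Abcc9, -1.41 for Vtn and -0.92 for Myh11. Angpt1, at -1.30, lay within the range of the 5 that fell, so the ratio does not describe mural cells as such. The 5 that rose are also made by fibroblasts or myofibroblasts. The lowest library of the Angpt1 to mural marker ratio was IZ replicate 8, at -3.05. Angpt1 with the cardiomyocyte markers gave r = 0.04 within the IZ (n = 9, exact permutation test, adjusted p = 0.886). Within sham r was -0.40 (n = 8, exact permutation test, adjusted p = 0.557). The part of the lower cardiomyocyte markers in the fall of Angpt1 was not tested further.

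All 3 angiopoietin-like members were higher in the IZ. Angptl4 (ENSMUSG00000002289, chromosome 17, 33773750 to 33781830, minus strand) had a lowest, median and highest level of 4.4, 18.6 and 32.9 CPM in sham. In the IZ these were 39.4, 57.2 and 122.6 CPM. No IZ library overlapped a sham library, and IZ replicates 3 (122.6 CPM) and 7 (102.6 CPM) were the highest. Its log2 fold change of 1.93 ± 0.29 (SE, edgeR adjusted p = 2.83e-06), or 3.82-fold, kept its direction and its call in all 27 alternatives. Angptl4 is abundant in fat, and the summed level of 5 adipocyte markers was 218.3 CPM in IZ replicate 2, 72.0 CPM in replicate 7 and 45.4 CPM in replicate 3, against 1.91 to 26.7 CPM in sham. In the other 6 IZ libraries that sum was at most 2.52 CPM while Angptl4 was at 44.2 to 73.3 CPM, above every sham library. Replicate 2 had the lowest Angptl4 of the IZ, and beyond these values the part of fat in the rise was not tested.

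Angptl2 (ENSMUSG00000004105, chromosome 2, 33216069 to 33247717, plus strand) was the most abundant member in both groups. It ran from 49.4 to 73.2 CPM in sham, with a median of 59.1 CPM, and from 64.5 to 146.8 CPM in the IZ, with a median of 95.1 CPM. Of the IZ libraries, 8 lay above all sham libraries, and replicate 3 lay within the sham range. The log2 fold change was 0.80 ± 0.15 (SE, edgeR adjusted p = 8.17e-05), or 1.74-fold. The summed level of 6 fibroblast markers, 1043 to 1911 CPM in sham and 6905 to 10945 CPM in the IZ, moved further. Relative to the mean log2 level of those markers, Angptl2 was lower in the IZ, with a log2 difference of -1.27 ± 0.17 (SE, exact permutation test, adjusted p = 1.03e-04), in 9 of 9 libraries. Dcn, the fibroblast marker that was not called, was at 856 CPM in sham and 877 CPM in the IZ.

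Angptl7 (ENSMUSG00000028989, chromosome 4, 148495183 to 148500460, minus strand) was rare in sham, with 0.78 to 6.63 CPM, a median of 2.49 CPM and 1 to 12 counts per library. In the IZ it ran from 4.83 to 20.4 CPM, with a median of 10.1 CPM. Of the IZ libraries, 7 lay above all sham libraries, and replicates 3 and 7 did not. The log2 fold change was 1.82 ± 0.36 (SE, edgeR adjusted p = 9.21e-05), or 3.52-fold. Of 6 tendon and cartilage markers, 4 could be tested and all 4 were higher (Fmod, Scx, Thbs4 and Comp), while Chad, below the filter, was at 2.47 CPM in sham and at 0 counts in all 9 IZ libraries. The summed level of the 6 was 19.5 to 55.8 CPM in sham and 64.5 to 197.5 CPM in the IZ. Their part in the rise of Angptl7 was not tested.

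Over the 7 members, 4 were higher, 2 lower and 1 not called, with a median log2 fold change of 0.80 against 0.05 for all genes tested. That 6 of 7 were called stands beside the 69.5% of all genes, and that 2 of 7 showed no overlap between the groups stands beside 33.1%, so neither count is a result about the family. Angpt2, Angptl2, Angptl4 and Angptl7 kept their direction and call under every scaling tried, while Tek and Tie1 turned upward and Angpt1 lost its call under total counts alone.

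**Figure D3:**
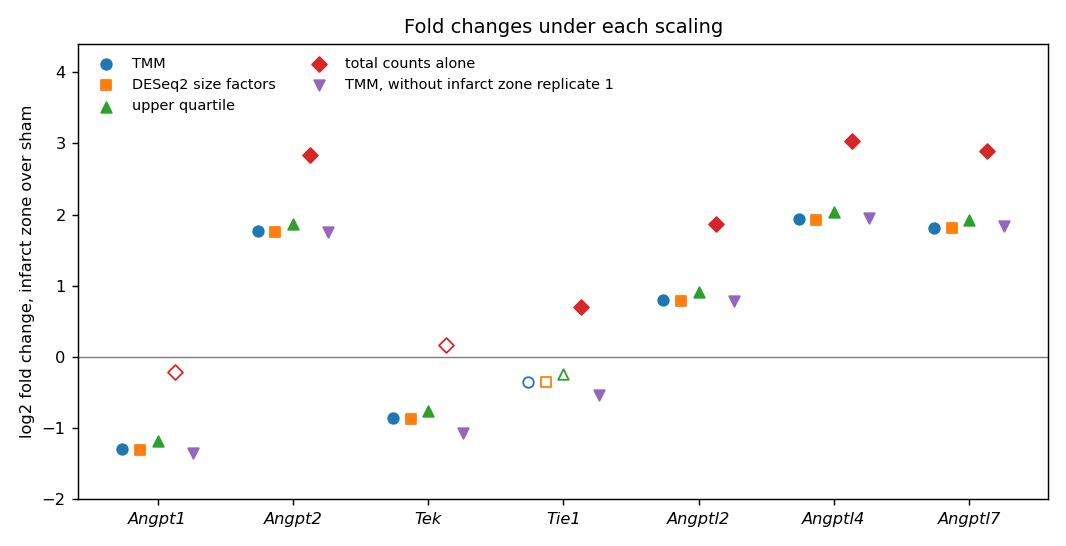
Log2 fold change, infarct zone over sham, of each member under 4 scalings of the libraries and without infarct zone replicate 1; filled symbols are called in edgeR (adjusted p under 0.05) and open ones are not. Total counts alone move every member upward, which turns Tek to 0.17 and Tie1 to 0.70.

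The order of levels changed between the groups. In sham it was Angptl2, Tek, Angpt1, Tie1, Angptl4, Angptl7 and Angpt2, and only Angptl2 over Tek and Angptl4 over Angptl7 were separated by more than the SDs of the neighbours. In the IZ it was Angptl2, Angptl4, Tie1, Tek, Angpt1, Angptl7 and Angpt2, and only Angptl4 over Tie1 was so separated. Between libraries of a group the low members varied most in sham, where the coefficient of variation was 64.3% for Angptl7, 59.0% for Angpt2 and 52.9% for Angptl4, against 15.2% for Tek and 15.5% for Angptl2. In the IZ, Tek had one of 43.0%, and Angptl7, at 48.2%, the highest. The spread of Tek came largely from replicate 1. Tek was at 19.4 ± 8.36 CPM (SD) in all IZ libraries and at 17.1 ± 4.69 CPM (SD) without it.

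Further angiopoietin-like genes were below the filter on low counts. Angptl1 had 1 to 12 counts per sham and 6 to 23 per IZ library, Angptl6 2 to 7 and 0 to 6, and Angptl8 0 to 1 and 0 to 3. Angptl6 was lower than in all sham libraries in 7 of 9 IZ libraries, at a mean of 2.99 CPM in sham and 1.04 CPM in the IZ, both near the level that 3 counts give.

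Of 7 genes whose products act on the Tie receptors or bind angiopoietins, 5 were higher, 1 was lower and 1 was not called. This count and those of the gene lists below stand beside the 69.5% called among all genes tested. None of them is read as a result about a list. Ptprb, the endothelial phosphatase VE-PTP that dephosphorylates Tie2, fell from 76.1 ± 15.1 CPM (SD, n = 8) to 36.7 ± 7.60 CPM (SD, n = 9), a log2 fold change of -1.05 ± 0.14 (SE, edgeR adjusted p = 4.96e-07), in 9 of 9 IZ libraries. With total counts alone it was 0.0032. Svep1, a large matrix protein that binds Tie1, ran from 31.7 to 81.6 CPM in sham and from 25.9 to 62.6 CPM in the IZ, a difference of -0.48 ± 0.22 (SE, edgeR adjusted p = 0.0530) that was called without IZ replicate 1 (-0.48, edgeR adjusted p = 0.0390) and turned to 0.59 with total counts alone. The integrin subunits Itgb1 (log2 fold change 0.94), Itgav (1.73) and Itga5 (1.73), to which angiopoietins can bind, all rose. So did the proteases Adam17 (0.94) and Mmp14 (3.54), which can release receptor ectodomains, Mmp14 from 18.8 to 215.1 CPM. The 5 that rose are made by many cell types, so their values do not describe the endothelium alone.

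Of the 18 genes of signalling below Tie2, 17 were tested, with 6 higher, 7 lower and 4 not called, and a median log2 fold change of -0.01. The phosphatidylinositol 3-kinase subunits Pik3r1 (-1.13 ± 0.11, SE) and Pik3ca (-0.43) fell, and Akt1, the kinase below them, was at 69.8 CPM in sham and 69.5 CPM in the IZ (edgeR adjusted p = 0.981). With total counts alone Pik3r1 lost its call (-0.06, edgeR adjusted p = 0.667). Foxo1, a transcription factor that Akt inactivates and that drives Angpt2 in endothelial cells, was at 40.0 ± 7.98 CPM (SD, n = 8) and 32.4 ± 7.97 CPM (SD, n = 9), a difference of -0.31 ± 0.15 (SE, edgeR adjusted p = 0.0666). Without IZ replicate 1, at 52.8 CPM, it was called as lower (-0.46, edgeR adjusted p = 0.00182), likewise without sham replicate 8 (-0.39, edgeR adjusted p = 0.0202), and it turned to 0.74 with total counts alone. The flow-responsive factor Klf2 (-0.90) and the endothelial nitric oxide synthase Nos3 (-0.67) fell. The adaptors went different ways, with Grb14 at -2.80 ± 0.26 (SE), from 174.9 to 25.3 CPM, and Shc1 at 1.03 ± 0.15 (SE) and Dok2 at 1.72 ± 0.32 (SE) in the other direction. Grb14 is abundant in cardiomyocytes, and its highest IZ library was replicate 1, at 72.9 CPM.

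**Figure D4:**
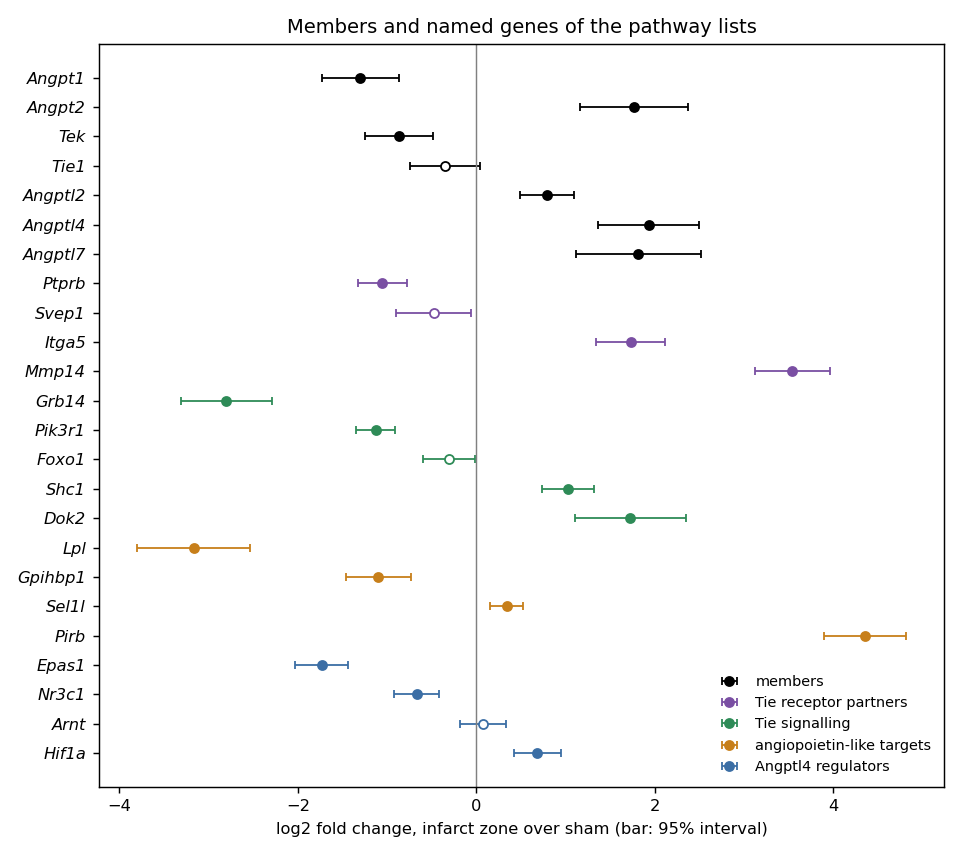
Log2 fold change, infarct zone over sham, of the 7 members and of named genes from 4 pathway lists, with 95% intervals taken from the SE; filled points are called in edgeR (adjusted p under 0.05) and open points are not. Values run from -3.17 for Lpl to 4.35 for Pirb.

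Targets and partners of the angiopoietin-like proteins numbered 7, of which 5 were tested, with 2 higher and 3 lower. Lpl, the lipoprotein lipase that Angptl4 inhibits, went from 5068 ± 421 CPM (SD, n = 8) in sham to 564 ± 498 CPM (SD, n = 9) in the IZ, a log2 fold change of -3.17 ± 0.32 (SE, edgeR adjusted p = 9.49e-09). IZ replicate 1 held 1878 CPM of it, and the mean of the other 8 was 400.1 ± 76.1 CPM (SD). Gpihbp1, the endothelial protein that anchors the lipase on capillaries, fell from 111.3 to 51.5 CPM (log2 fold change -1.10 ± 0.19, SE, edgeR adjusted p = 1.49e-05). With total counts alone Gpihbp1 lost its call (-0.07, edgeR adjusted p = 0.705). Lmf1, which matures the lipase in the endoplasmic reticulum, had a log2 fold change of -0.59, and its partner Sel1l one of 0.34. Pirb, a leukocyte receptor for angiopoietin-like proteins, rose from 4.15 to 82.4 CPM (log2 fold change 4.35 ± 0.24, SE, edgeR adjusted p = 6.92e-13), beside the macrophage markers, whose summed level was 352 to 511 CPM in sham and 1841 to 5020 CPM in the IZ. The endothelial lipase gene Lipg was below the filter.

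Angptl4 was higher relative to Lpl in the IZ. The log2 ratio of Angptl4 to Lpl was -8.35 ± 0.93 (SD, n = 8) in sham and -2.89 ± 1.11 (SD, n = 9) in the IZ, a difference of 5.45 ± 0.49 (SE, exact permutation test, adjusted p = 1.03e-04), or 43.9-fold. IZ replicate 1 was the lowest of the IZ at -5.33 and still above all sham libraries. Lpl fell together with the cardiomyocyte markers, whose median log2 fold change was -3.72, and their part in the ratio was not tested.

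Of 8 transcription factor genes known to act on Angptl4, 7 were tested, with 1 higher, 4 lower and 2 not called. Hif1a, which responds to low oxygen, rose from 65.2 ± 12.8 CPM (SD, n = 8) to 104.9 ± 20.4 CPM (SD, n = 9), a log2 fold change of 0.68 ± 0.14 (SE, edgeR adjusted p = 1.06e-04), in 9 of 9 IZ libraries. Its relative Epas1, which is high in endothelium, fell by 1.73 on the log2 scale, and their shared partner Arnt was at 30.1 and 31.9 CPM (edgeR adjusted p = 0.636). The fatty acid sensor Ppard (-0.45), its partner Rxra (-0.48) and the glucocorticoid receptor gene Nr3c1 (-0.67) were lower, Pparg was at 9.41 and 6.62 CPM (edgeR adjusted p = 0.190), and Ppara was below the filter at 1.74 and 0.17 CPM. With total counts alone 6 of the 7 were called as higher, Nr3c1 among them at 0.40.

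In 7 pairings of a member with another member or a marker list, each taken within sham and within the IZ, none of the 14 Pearson correlations passed a permutation test after adjustment. The highest was that of Tek with the endothelial markers in sham (r = 0.80, exact permutation p = 0.0179, adjusted 0.251, and rho = 0.76, exact permutation p = 0.0368, adjusted 0.257, n = 8), and it was 0.72 without the 2 libraries farthest from the median. In the IZ the same pair gave r = 0.22 (exact permutation p = 0.582, adjusted 0.679) and rho = 0.33 (exact permutation p = 0.385, adjusted 0.490, n = 9), and r = -0.32 without replicate 1. Tek with Tie1 gave r = 0.39 and rho = 0.37 in the IZ (n = 9, exact permutation p = 0.292 and 0.336, adjusted 0.557 and 0.490), and r = -0.26 without replicate 1, the library with the most of both at 38.4 CPM each.

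As a description without a test, the genes whose levels deviated from their group means most like those of each member were listed over the 17 libraries, from 9314 or 9315 genes. Tie1 had the closest, Slc25a22 (r = 0.94, rho = 0.95), followed for the others by Ptbp3 for Angptl4 (r = 0.87, rho = 0.89), Zfp938 for Tek (r = 0.87, rho = 0.69) and Nf1 for Angpt1 (r = 0.82, rho = 0.78). Cbr1 for Angptl7 (r = 0.78), Eri1 for Angpt2 (r = 0.77) and Hist1h2bc for Angptl2 (r = 0.77) were lower. No member was among the 3 closest genes of another. All these values share the libraries, their scaling and their depth.

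Angpt1, Angpt2, Angptl2 and Angptl7 overlap genes on the opposite strand (Gm17473, Mcph1, Ralgps1 and Mtor). The sources used here do not say whether counting used the strand, and without it the reads of such a pair cannot be told apart. The last 500 bases of no member's transcripts had a match of at least 95% identity over 100 bases in another gene.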

How the data were processed

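Raw counts per gene were deposited by the authors for 8 sham and 9 IZ libraries of a larger study. According to the methods and the processing notes, 3′ end libraries with unique molecular identifiers were demultiplexed with bcl2fastq, aligned with Bowtie2 to mm10 and counted with HTSeq; the annotation release, the versions and the use of strand are not given in the sources used here. Of 31647 features, 31521 matched GENCODE M21, from which coordinates were taken; 35 merge several genes and took at most 0.215% of a library's counts. The 7 members and all gene lists were chosen with earlier results of these data known.

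Counts were tested in R 4.3.3 with edgeR 4.0.16 (TMM, filterByExpr with a minimum count of 10, quasi-likelihood test, Benjamini-Hochberg adjustment over 12301 genes). DESeq2 1.42.0 was an alternative. Ratios within a library used log2 CPM with a prior count of 1 and exact permutation of the group labels (SciPy 1.17.1), two-sided and adjusted over the 10 ratios; correlations were tested by permutation and adjusted over 14. SEs of fold changes come from the fit, intervals are normal 95% intervals. Scripts were checked on simulated counts. Libraries of a group are separate mice. Floors at 3 counts cover counting error only, and intervals include the spread between mice. Alternatives were other scalings, filters, the DESeq2 Wald test, thinning, removal of mitochondrial features, each library left out, and the replicate number as a block. Genes named are the members, the other family genes and, per pathway list, the 2 highest and 2 lowest fold changes plus Ptprb, Svep1, Foxo1, Lpl, Gpihbp1 and Pirb; Lilrb4a, also in the rule, is not analysed here, and some list genes are not reported here. Other list genes were named after their values were seen. No library pair differed by less than sampling noise. BLAST 2.17.0 searched for near-identical transcripts.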

Additional observations from a re-analysis of the deposited data

Results flagged for a closer look

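A library far from the others of its group was found in 13 of 68 groups of values by Dixon's test at the 95% level, which chance gives in about 1 of 20 groups. In the IZ, replicate 1 was the highest library for Tie1 (38.4 CPM, the next at 24.7), Grb14 (72.9 CPM, the next at 25.1), Foxo1 (52.8 CPM, the next at 32.0), Lpl (1878 CPM, the next at 528), Gpihbp1 (94.4 CPM, the next at 59.7) and Epas1 (127.1 CPM, the next at 75.9), and it was the lowest for the log2 ratio of Angptl4 to Lpl (-5.33, the next at -3.20). It is the library with the most cardiomyocyte marker counts of the IZ, and their part in these values was not tested. IZ replicate 8 was highest for the log2 ratio of Angpt2 to Angpt1 (1.40, the next at -0.06) and lowest for Angpt1 over mural markers (-3.05, the next at -2.0), both of which hold its low Angpt1 of 4.6 CPM. IZ replicate 7 was highest for Tie1 to Tek (1.45, the next at 0.30) and lowest for Tek over endothelial markers (-2.32, the next at -1.20), both of which hold its low Tek of 8.59 CPM, from 16 counts. In sham, Mmp14 was highest in replicate 3 (36.1 CPM, the next at 21.5) and Epas1 lowest in replicate 6 (182.8 CPM, the next at 222.8).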

How the results depend on the processing

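Of 25 to 27 alternatives each, Angpt2 (log2 fold change 1.54 to 2.84) and the rises of Angptl2, Angptl4 and Angptl7 kept direction and call in all that gave a value, and Angpt1 and Tek lost theirs only with total counts alone (-0.22, adjusted p = 0.356, and 0.17, adjusted p = 0.369, in edgeR). Leaving out 1 library gave ranges of -1.40 to -1.19 for Angpt1, -1.08 to -0.77 for Tek and -0.53 to -0.26 for Tie1, which was called without IZ replicate 1 or sham replicate 8. Svep1 was called in 7 of 17 such fits and with DESeq2 size factors (-0.49, adjusted p = 0.0470). Total counts alone also turned Tie1 (0.70), Ptprb (0.0032), Svep1 (0.59), Foxo1 (0.74) and Nr3c1 (0.40), which follows from a shift of 1.08 in the median of all genes; 85.7% of calls were then higher, against 52.3% with TMM, and upper quartile scaling (shift 0.11) gave 57.6%. The number of genes called was 8544, 10710 with total counts alone, 10664 without a filter, 10302 in DESeq2, and 5239 of 6734 with a minimum mean of 50 counts; 7962 to 8614 were called without 1 library.

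The replicate numbers did not pair the libraries: correlations of same-numbered deviations were -0.22 to 0.13, and 1 of 8 sham libraries correlated best with its own number. With the numbers as a block 7884 genes were called, against 8153 in the same 16 libraries without it, an alternative chosen after seeing the data. In the block the Tie1 to Tek ratio was 0.59 (adjusted p = 0.0879, exact sign flips of 8 pairs) and Tek over endothelial markers -0.47 (adjusted p = 0.0879). Medians in place of means gave 0.35 for Tie1 to Tek. A prior count of 5 gave 2.47 for Angpt2 to Angpt1, 2.17 for Angpt2 to Tek and 1.76 for Angpt2 over endothelial markers, with these calls kept. Leaving out 1 library gave 0.43 to 0.71 for Tie1 to Tek and -0.54 to -0.30 for Tek over endothelial markers.

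Correlations within a group moved most. Leave-one-out ranges of r were -0.26 to 0.72 (IZ) and -0.14 to 0.49 (sham) for Tek with Tie1, -0.32 to 0.69 (IZ) and 0.70 to 0.94 (sham) for Tek with endothelial markers, -0.64 to 0.17 (IZ) and -0.32 to 0.31 (sham) for Angpt1 with Angpt2, and -0.24 to 0.13 (IZ) for Angpt1 with cardiomyocyte markers; with total counts alone, r was -0.21 for Tek with endothelial markers and for Angpt1 with cardiomyocyte markers in the IZ. Without sham replicate 4, Tek with endothelial markers in sham reached r = 0.94 (permutation test, adjusted p = 0.0444). Depth limits Angpt2 and Angptl7 in sham, where libraries held 1 to 8 and 1 to 12 counts.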

Other observations

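Markers of lymphatic endothelium, which also carries Tie receptors and responds to angiopoietins, went in different directions. Of 4 measured, Prox1 fell from 54.0 to 8.30 CPM (log2 fold change -2.81, edgeR adjusted p = 1.21e-06) and Lyve1 from 16.8 to 6.21 CPM (-1.30, edgeR adjusted p = 5.62e-04), Flt4 was at 13 and 12.5 CPM (edgeR adjusted p = 0.912), and Pdpn rose from 5.03 to 49.7 CPM (3.34, edgeR adjusted p = 6.05e-11). Prox1 is also made by cardiomyocytes, Lyve1 by resident macrophages and Pdpn by activated fibroblasts. Red cell markers were at 2120 to 5217 CPM in sham and 1229 to 9975 CPM in the IZ, and neither was called.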
